A study of Mus musculus with 22 samples.

Results

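Recombinant periostin (rPOSTN) was added to dorsal root ganglion neuron cultures from mice carrying a Postn knock out, and the transcriptome was compared with that of knockout cultures kept in medium without it. The comparison used the 6 knockout (KO) culture libraries among the 22 libraries of the series, 3 with rPOSTN and 3 controls, and every expressed gene in them. The cultures were primary mouse cells harvested after 72 h, and RNA was sequenced in bulk from polyadenylated transcripts. All 6 libraries therefore share the Postn knock out and the culture time, and differ by label in rPOSTN alone. The sources used here do not state the dose or source of rPOSTN, or the design of the knockout allele. The 6 cultures of wild-type (WT) mice, 3 with rPOSTN and 3 controls, enter only where the effect in KO cultures is set against that in WT cultures. Libraries are named below by treatment and replicate number, such as control 1 and rPOSTN 1. Nothing in the labels says whether the numbers mark separate mice, so p-values measure the spread between these libraries, which may be technical.

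Periostin is a secreted matricellular protein, made by fibroblasts, osteoblasts and other mesenchymal cells, that binds collagen and fibronectin in the matrix. It signals to cells through integrins that contain the alpha v subunit paired with beta 3 or beta 5, and from these through focal adhesion kinase and its partners. In skin, periostin has been linked to itch, through integrins on sensory neurons. Cultures from dissociated ganglia hold sensory neurons together with satellite glia, Schwann cells and fibroblasts, so a bulk library reads all of them, and fewer cells of a type and less RNA per cell cannot be told apart.

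Library totals in the KO cultures ran from 18329786 to 19205603 counts, and 16756 of 55487 genes had enough counts to be tested. Levels are given as CPM, read counts scaled to a common library size, and differences as log2 ratios of rPOSTN to control with a standard error (SE). Per kilobase of exon, neuronal genes were among the highest: Prph (a neurofilament-type protein of small sensory neurons) was at 894 CPM per kb and ranked 7 of 16741 genes with a length, and Tubb3 (neuronal tubulin) was at 658 CPM per kb and ranked 17. Sox10, a transcription factor of satellite glia and Schwann cells, stood at 108 CPM per kb, the fibroblast gene Col1a2 at 37.0 and the macrophage receptor gene Csf1r at 0.773. The tissue label thus held for neurons, with other ganglion cells present. Of the macrophage list, 20 of 22 genes were tested and the summed level ran from 147 to 222 CPM, most of it Lyz2 and Cd68, while Itgam had 50 counts and Cx3cr1 had 23 counts over the 6 libraries.

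The deleted gene was read first. Postn stood at 111, 108 and 409 CPM in control 1, 2 and 3, and at 83.5, 71.8 and 456 CPM in rPOSTN 1, 2 and 3. Both libraries of number 3 were thus far above the other libraries, with and without rPOSTN, and the treatment groups overlapped. Normalised together with the WT cultures, Postn was between 70.0 and 450 CPM in the KO libraries and between 685 and 1013 CPM in the WT libraries, without overlap. The KO and WT counts were deposited as separate sets, so genotype and set cannot be told apart here. The share of mitochondrial counts also differed, at 0.98 to 1.34% in KO libraries and 2.28 to 2.63% in WT libraries. Reads remained in the KO cultures, and which exons they came from cannot be read from gene counts. In the paired fit Postn was 0.27 lower with rPOSTN on the log2 scale (SE 0.12, edgeR unadjusted p = 0.0418, adjusted p = 0.999), and in the unpaired fit the difference was -0.04 (SE 1.02). Leaving out control 3 turned the unpaired value to 0.90 and leaving out rPOSTN 3 to -1.43, so it rested on which number 3 library was present.

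Some libraries stood apart before any gene was compared. In a principal component analysis the first component held 35.7% of the variance and placed rPOSTN 2 at 48.1 and control 2 at 21.7, with the other libraries below 0. The second component held 24.2% and placed rPOSTN 1 at -42.5, and both libraries of number 3 above 20. Relative to the mean library, longer genes were lower in rPOSTN 1, by -0.125 on the log2 scale per doubling of exon length, against -0.007 to 0.067 in the other libraries. Deviations from the group means correlated at 0.39, 0.71 and 0.63 between control and rPOSTN of the same number over 10984 genes, and at -0.58 to 0.06 between different numbers. Same-numbered libraries were therefore treated as pairs, and the count of genes called is given without and with the number as a block. Many single genes are given from 1 of these fits, and paired values come from the blocked fit. Over the same genes, replicate number took 69.3% of the sum of squares, treatment 9.14% and the remainder 21.6%.

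**Figure D1:**
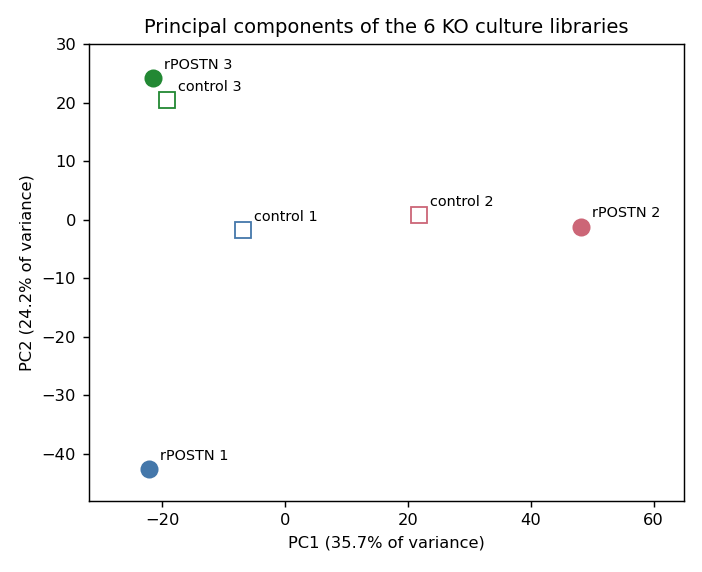
Principal components of the 6 KO culture libraries, from log2 CPM of the 16756 tested genes (x axis PC1, y axis PC2, share of variance in the labels). Open squares are controls, filled circles rPOSTN, and colours replicate numbers. Control 3 and rPOSTN 3 lie together, control 2 and rPOSTN 2 lie to the right, and rPOSTN 1 lies lowest.

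No gene passed an adjusted p of 0.05 for rPOSTN against control in KO cultures. In edgeR's quasi-likelihood test 0 of 16756 genes (0%) were called without the block, where 155 had an unadjusted p below 0.05 and the smallest adjusted p was 0.9996. With the block 0 genes (0%) were called, 547 had an unadjusted p below 0.05, and the smallest adjusted p was 0.251. For scale, 5% of the genes tested is 838. DESeq2 called 0 genes in each fit, and limma-trend called 0.

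How large an effect these libraries leave possible can be read from the intervals. The median absolute difference was 0.10 on the log2 scale in each fit, and the median SE was 0.18 without and 0.14 with the block. The 95% interval lay within a 2-fold change in either direction for 12705 genes (75.8%) unpaired and for 13400 genes (80.0%) paired. Among the 10470 genes with a mean of at least 10 CPM it did so for 10241 unpaired and for 10442 paired. At lower levels a 2-fold change was not detectable for many genes. The biological coefficient of variation was 18.8% unpaired and 11.6% with the block.

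**Figure D2:**
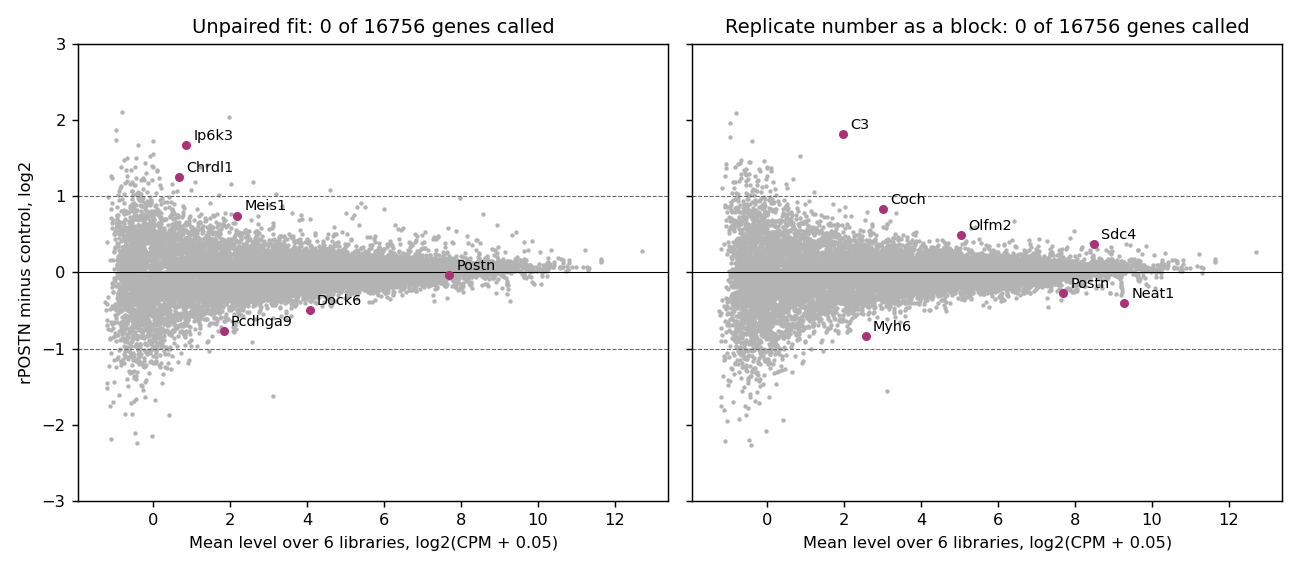
Difference between rPOSTN and control KO cultures (y axis, log2) against mean level over the 6 libraries (x axis, log2 of CPM + 0.05) for 16756 genes, in the unpaired fit (left) and with the replicate number as a block (right). Grey points are genes, labelled points are genes described in the text, and dashed lines mark 2-fold. No gene is called in either panel, and C3 lies at 1.82 in the right one.

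The treatment groups did not overlap for 903 genes (5.39%), of which 407 were higher in all 3 rPOSTN libraries (2.43%) and 496 lower (2.96%). Within the pairs, 2045 genes were higher in 3 of 3 (12.2%) and 1867 lower in 3 of 3 (11.1%). With 3 libraries per group such orderings also arise without any effect, so these counts are not read as a response. Some genes with the smallest unadjusted p are described next, with values and no claim that they changed.

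C3 encodes complement component 3, the central protein of the complement cascade and an acute phase gene. It was at 0.930, 1.4 and 2.23 CPM in control 1, 2 and 3, and at 1.37, 5.74 and 11.7 CPM in rPOSTN 1, 2 and 3. The groups overlapped, since rPOSTN 1 was below control 2, but rPOSTN was the higher library in all 3 pairs, least in pair 1. With the block the difference was 1.82 on the log2 scale (SE 0.33, edgeR unadjusted p = 1.5e-05, adjusted p = 0.251), the smallest p of that fit. The unpaired difference was 2.04 (SE 0.72, edgeR adjusted p = 0.9996). C3 passed the threshold with the block when both libraries of number 1 were left out (2.22, edgeR adjusted p = 0.0343) or both of number 2 (1.72, edgeR adjusted p = 0.0176), and not when those of number 3 were (1.38, edgeR adjusted p = 0.478). In DESeq2 with the block its difference was 1.75 (adjusted p = 0.9998). In WT cultures C3 was at 1.23 ± 0.30 CPM in controls and 1.23 ± 0.12 CPM with rPOSTN (SD, n = 3 each). The difference between the KO and WT effects was 1.84 in the blocked fit (SE 0.47, edgeR adjusted p = 0.967), so the effects were not shown to differ.

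Sdc4 encodes syndecan 4, a heparan sulfate proteoglycan that works beside integrins at focal adhesions. It stood at 269, 328 and 346 CPM in control 1, 2 and 3, and at 344, 507 and 379 CPM in rPOSTN 1, 2 and 3. Each rPOSTN library was above its own control, with the widest gap in pair 2. The paired difference was 0.37 (SE 0.09, edgeR unadjusted p = 0.000554, adjusted p = 0.999). The unpaired difference of 0.38 was 0.20 without rPOSTN 2.

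Coch (cochlin, a secreted matrix protein) stood at 5.11, 7.00 and 4.66 CPM in the controls and at 7.38, 15.6 and 7.92 CPM with rPOSTN. The groups did not overlap, and the paired difference was 0.83 (SE 0.20, edgeR unadjusted p = 0.000437, adjusted p = 0.999). Olfm2 (olfactomedin 2, a secreted glycoprotein) stood at 24.4, 33.0 and 23.6 CPM in the controls and at 32.1, 49.7 and 32.9 CPM with rPOSTN, higher in all 3 pairs. Mmp3, a matrix metalloprotease, stood at 4.55, 12.2 and 4.76 CPM in the controls and at 4.54, 23.9 and 11.1 CPM with rPOSTN. Its pair 1 was level while pairs 2 and 3 were higher with rPOSTN, and the paired difference was 0.78 (SE 0.21, edgeR unadjusted p = 0.00159, adjusted p = 0.999).

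On the lower side, Neat1, the long non-coding RNA that builds nuclear paraspeckles, stood at 600, 784 and 729 CPM in the controls and at 386, 631 and 606 CPM with rPOSTN. The groups overlapped, with rPOSTN lower in all 3 pairs and lowest in number 1. The paired difference was -0.40 (SE 0.09, edgeR unadjusted p = 9.26e-05, adjusted p = 0.776), and the unpaired difference of -0.38 was -0.19 without rPOSTN 1. Leng8 stood at 200, 218 and 252 CPM in the controls and at 135, 173 and 220 CPM with rPOSTN, lowest in rPOSTN 1. That library is the one with lower counts of long genes, and the part of this in either value was not tested. Myh6 stood at 6.35, 4.53 and 12.1 CPM in the controls and at 3.93, 3.40 and 4.79 CPM with rPOSTN.

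Some genes with a small unadjusted p in the unpaired fit had groups that did not overlap, and their differences are given from that fit. Choosing genes by that p favours separate groups, so the separation adds no support. Meis1, a homeobox transcription factor, stood at 3.51, 3.34 and 3.26 CPM in the controls and at 4.97, 6.18 and 5.78 CPM with rPOSTN, a difference of 0.74 (SE 0.23). Dock6, an exchange factor for Rac and Cdc42, stood at 19.7, 17.8 and 21.2 CPM in the controls and at 12.4, 14.9 and 14.4 CPM with rPOSTN, a difference of -0.49 (SE 0.16). Chrdl1, a secreted antagonist of bone morphogenetic proteins, stood at 0.930, 0.754 and 1.04 CPM in the controls and at 1.80, 2.84 and 1.87 CPM with rPOSTN, a difference of 1.25 (SE 0.39). Each of these had an adjusted p of 0.9996 in edgeR, and each is among the 5 genes with the smallest unadjusted p in its direction.

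The other genes of that kind were mostly at low levels. Ip6k3, an inositol phosphate kinase, stood at 0.878, 1.02 and 0.622 CPM in the controls and at 2.24, 4.68 and 1.15 CPM with rPOSTN, a difference of 1.67 (SE 0.52). Pcdhga9, a clustered protocadherin of neuronal surfaces whose exons partly overlap those of its neighbours, stood at 4.34, 4.31 and 4.66 CPM in the controls and at 2.79, 2.56 and 2.45 CPM with rPOSTN, a difference of -0.77 (SE 0.25). Paox, a polyamine oxidase, had a mean of 14.1 CPM in the controls and 9.52 CPM with rPOSTN, a difference of -0.57 (SE 0.19). The groups of these 3 genes did not overlap, and their differences are also from the unpaired fit. Tas1r3 (a taste receptor subunit), Zfp366 and Myo5b (a vesicle motor) also had groups that did not overlap, with differences of -0.61, -1.03 and 1.16.

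**Figure D3:**
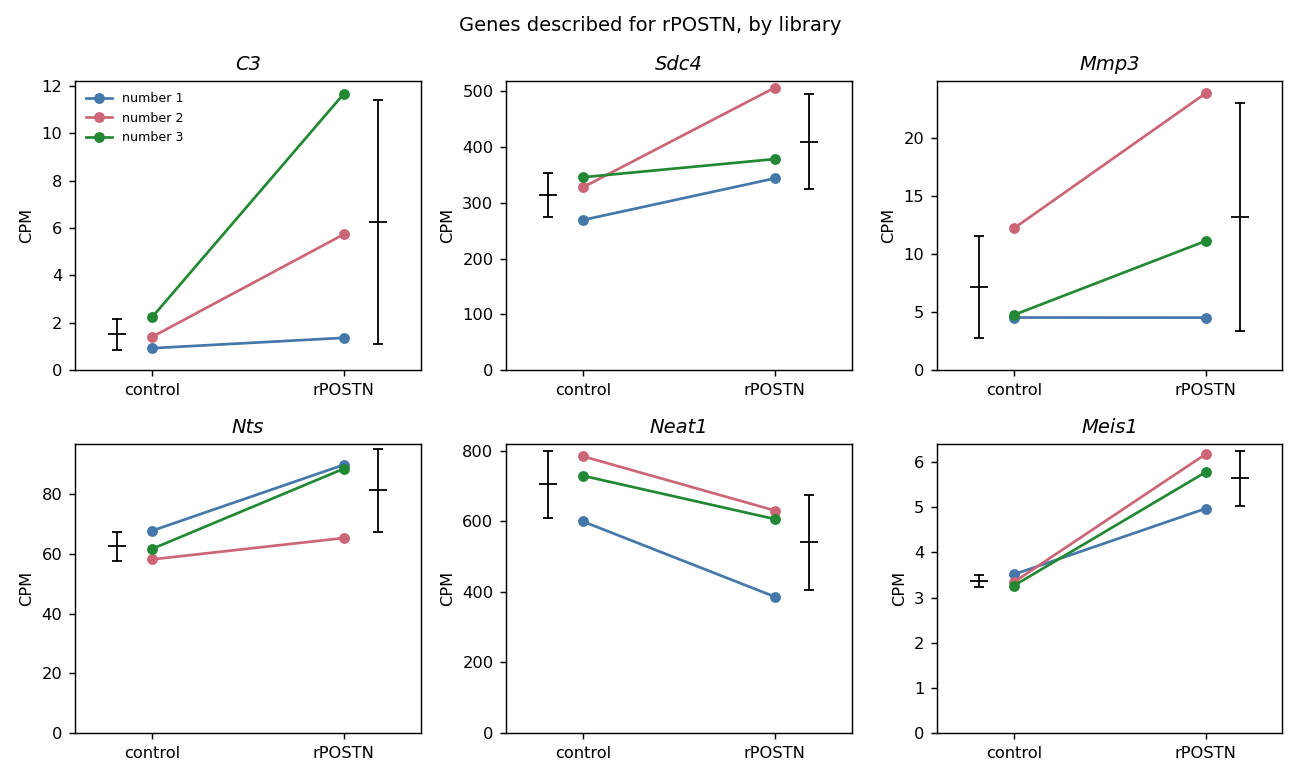
CPM (y axis) of 6 genes in control and rPOSTN KO cultures, with libraries of the same replicate number joined by lines and coloured by number. Black marks beside the points give the mean and SD of the 3 libraries. C3 goes from 2.23 to 11.7 CPM in pair 3 and from 0.930 to 1.37 CPM in pair 1, and the Meis1 groups are separate, at 3.26 to 3.51 CPM and 4.97 to 6.18 CPM.

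The integrin subunits were read as the receptors of periostin. All 18 on the list were tested, 0 were called in either fit, and the paired median was -0.02 against -0.00 over all genes tested. Of the subunits that bind periostin as alpha v pairs, Itgav was at 401 CPM in controls and 396 CPM with rPOSTN (means of 3), Itgb5 was at 83.4 and 83.5 CPM, and Itgb3 was at 61.0 and 94.3 CPM. The Itgb3 mean followed rPOSTN 2: Itgb3 stood at 49.0, 78.3 and 55.6 CPM in the controls and at 48.1, 179 and 55.4 CPM with rPOSTN, and the unpaired difference of 0.63 (SE 0.58) turned to -0.23 without rPOSTN 2. Its 95% interval ran from -0.83 to 2.09. For Itgav it ran within a 2-fold change. Per kilobase, Itgb1 was the highest of these (313 CPM per kb), followed by Itga7 (171), Itgb8 (64.4), Itgav (37.1), Itgb5 (23.5) and Itgb3 (13.2). Itga7, whose protein pairs with beta 1 as a laminin receptor and is induced after nerve injury, was at 1337 CPM in controls and 1431 CPM with rPOSTN, a paired difference of 0.10 (SE 0.08).

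Downstream of integrins, 23 of 24 focal adhesion and integrin signalling genes were tested and 0 were called. The paired median was 0.01, and the 95% interval lay within a 2-fold change for all 23. Ptk2 (focal adhesion kinase) was at 104 CPM in controls and 103 CPM with rPOSTN, and Src was at 71.3 and 79.2 CPM. Fermt2 (kindlin 2, an integrin activator) had the lowest unadjusted p of the list in the paired fit, at 253 and 303 CPM, a paired difference of 0.23 (SE 0.09, edgeR unadjusted p = 0.0187, adjusted p = 0.999). Ilk was not tested, with 9 counts over the 6 libraries. That count is not read as absence, because the sources used here do not state the strand and overlap settings of the authors' counting.

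Itch and pain genes of the neurons were compared next. Of 20 itch receptors and transducers, 17 were tested and 0 were called, with a paired median of 0.06. Il4ra, the receptor chain shared by interleukins 4 and 13, stood at 105, 119 and 126 CPM in controls and at 125, 152 and 132 CPM with rPOSTN, a paired difference of 0.22 (SE 0.09, edgeR unadjusted p = 0.0241, adjusted p = 0.999). The groups overlapped, and rPOSTN was higher in all 3 pairs. Osmr was at 86.9 and 90.4 CPM, Jak1 at 354 and 370 CPM and Plcb3 at 136 and 134 CPM (means of 3). Low levels limited the rest: Il31ra was at 1.79 and 1.76 CPM, F2rl1 (the PAR2 receptor) at 0.354 and 0.587 CPM, and the interval lay within 2-fold for only 11 of the 17. Mrgpra3, the receptor of a major class of itch neurons, had 6 counts over the 6 libraries, Mrgprd had 48, and Tslp had 27, and none of the 3 was tested.

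All 22 peptidergic nociceptor genes and neuropeptides were tested, 0 were called, and the paired median was 0.05. Nts, the neurotensin precursor, stood at 67.7, 58.1 and 61.6 CPM in the controls and at 89.8, 65.3 and 88.5 CPM with rPOSTN. Pairs 1 and 3 were further apart than pair 2, and only rPOSTN 2 fell within the range of the controls. The paired difference was 0.37 (SE 0.10, edgeR unadjusted p = 0.00171, adjusted p = 0.999). Calca (the CGRP precursor) was at 702 and 754 CPM, Trpv1 (the capsaicin receptor) at 23.3 and 23.7 CPM, Scn10a (a sodium channel of nociceptors) at 208 and 220 CPM, and P2rx3 (an ATP receptor) at 486 and 514 CPM (means of 3). Trpa1 was at 11.8 and 13.6 CPM, with groups that did not overlap and a paired difference of 0.21 (SE 0.16). Groups did not overlap for 3 of the 22 genes, against 5.39% of all genes, and 14 of the 22 were higher in the unpaired fit. Sst went the other way at a low level. Normalised with the WT cultures, it stood at 0.706, 0.687 and 1.22 CPM in KO controls and at 0.269, 0.543 and 0.359 CPM with rPOSTN.

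Of 24 pan-neuronal genes, all tested, 0 were called, the median was 0.05 and all 24 intervals lay within 2-fold. The 22 tested nerve injury and regeneration genes likewise gave 0 calls, with a median of 0.09. Atf3 (a transcription factor of injured neurons) was at 519 and 574 CPM, Sprr1a at 227 and 251 CPM and Sox11 at 119 and 127 CPM. Tubb2b, a tubulin of growing axons, was at 401 and 495 CPM, a paired difference of 0.29 (SE 0.09, edgeR unadjusted p = 0.00309, adjusted p = 0.999). Flrt3, a leucine-rich repeat protein of the cell surface, was at 181 and 217 CPM, a paired difference of 0.26 (SE 0.09).

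Matrix and immune genes were compared in the same way. Of 24 matrix proteases and inhibitors, all tested, 0 were called and the paired median was 0.13. Plat (tissue plasminogen activator) was at 290 and 391 CPM, a paired difference of 0.38 (SE 0.11, edgeR unadjusted p = 0.00294, adjusted p = 0.999), and Mmp14 was at 168 and 164 CPM. The 24 fibroblast and collagen matrix genes and the 21 tested matricellular genes had medians of -0.01 and -0.04. The 20 tested macrophage genes had a median of -0.17, with intervals within 2-fold for 10 of them, and all but Lyz2 and Cd68 had means below 7 CPM in each group. The 25 tested cytokine, chemokine and NF-kB genes had a median of 0.13 and the 19 acute phase genes a median of 0.06. Lcn2 was at 2.72 and 4.24 CPM and Hp at 0.441 and 1.46 CPM, so C3 was not the only low-level acute phase gene with a higher mean, and none passed the threshold. Over all 29 lists, 0 members were called for rPOSTN in either fit.

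**Figure D4:**
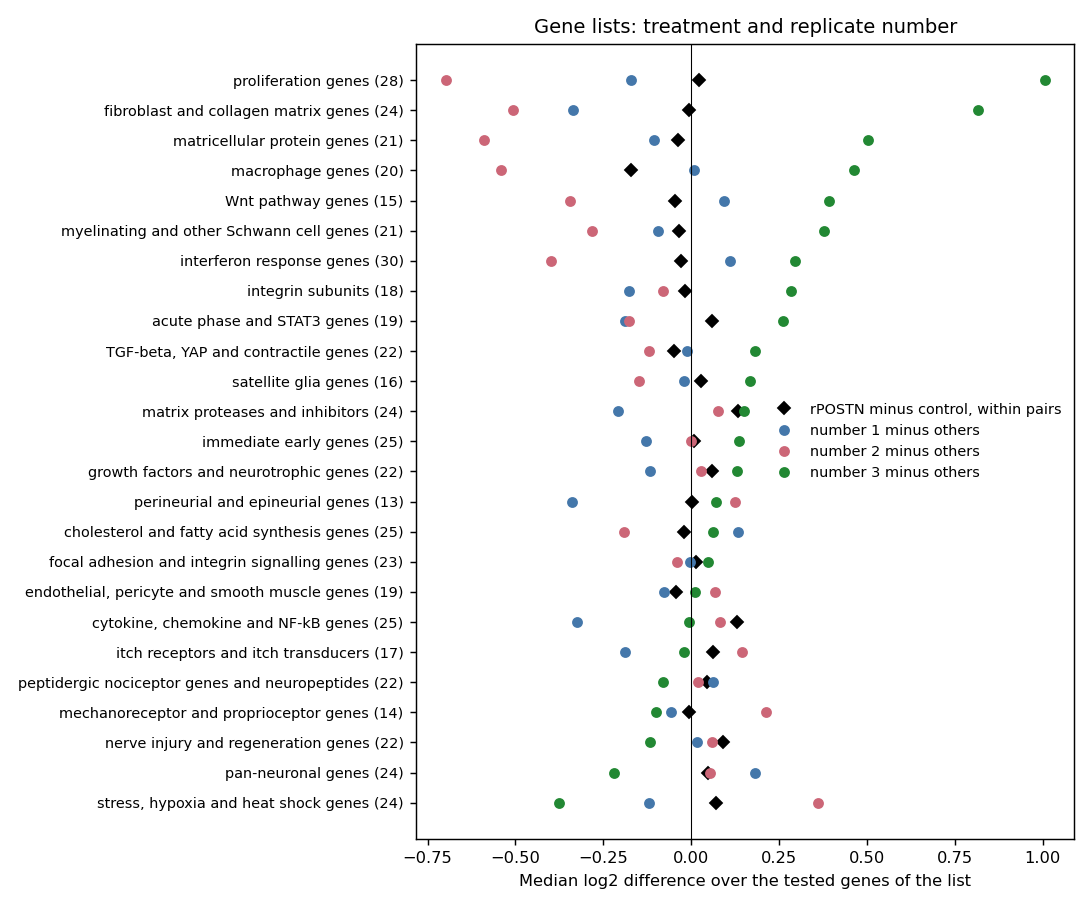
Median log2 difference over the tested genes of each list (x axis) for 25 lists with at least 10 tested genes (y axis, number of tested genes in brackets). Black diamonds give rPOSTN against control within pairs, and coloured circles give each replicate number against the mean of the other numbers. The diamonds lie between -0.17 and 0.13, while number 3 reaches 1.01 for proliferation genes and number 2 reaches -0.70.

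Replicate number was tested in the same libraries. In the model with treatment and number, 1374 of 16756 genes (8.2%) differed between the 3 numbers by edgeR's quasi-likelihood F test at an adjusted p of 0.05, and 353 of them had number means more than 1 log2 unit apart. DESeq2 called 1016. The count depended on single libraries: it was 625 without rPOSTN 2, 890 without rPOSTN 3, 2402 without control 2 and 3203 without control 1. Each number against the mean of the other 2 gave 4 genes higher (0.0239%) and 18 lower (0.107%) for number 1, 892 higher (5.32%) and 623 lower (3.72%) for number 2, and 500 higher (2.98%) and 242 lower (1.44%) for number 3. These contrasts were added after the data had been seen.

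Number 3 stood out by matrix and proliferation genes, though not by these alone. Of 24 fibroblast and collagen matrix genes, 17 were higher in number 3 and 1 was lower, with a median of 0.82 against -0.00 over all genes. Dcn (decorin) stood at 88.4, 73.6 and 163 CPM in control 1, 2 and 3 and at 92.7, 93.7 and 207 CPM with rPOSTN, and number 3 was 1.08 above the others (SE 0.10, edgeR F test adjusted p = 1.19e-06). Col1a2 stood at 392, 359 and 606 CPM and at 366, 354 and 680 CPM in the same order. Of 28 proliferation genes 21 were higher in number 3 and 0 lower, with a median of 1.01. Top2a (a topoisomerase of dividing cells) stood at 34.6, 38.2 and 77.4 CPM in the controls and at 39.6, 30.8 and 92.0 CPM with rPOSTN, so the libraries of number 3 were the highest of each group. Of 21 matricellular genes, 12 were higher in number 3, among them Postn itself, Thbs2 and Tgfbi. Tgfbi, the closest relative of periostin, stood at 54.9, 41.4 and 122.6 CPM in the controls and at 53.1, 28.2 and 119 CPM with rPOSTN. Postn is thus high in the libraries where other fibroblast genes are high, a measured association whose part in the Postn level was not tested. The sizes differed, since number 3 was 2.24 above the others for Postn, against 1.08 for Dcn and the fibroblast list median of 0.82. Of 21 Schwann cell genes 8 were higher in number 3 and 1 lower (median 0.38). Of 16 satellite glia genes 5 were higher and 2 lower (median 0.17), and of 19 endothelial and mural genes 0 were either. Number 2 was lower than the others for 12 of 24 fibroblast and 17 of 28 proliferation genes, with medians of -0.51 and -0.70. The neuronal list was lower in number 3 for 5 of 24 genes, with a median of -0.22. Summed over 4 Y-linked genes the libraries of number 3 were at 101 and 102 CPM against 47.0 to 52.6 in the others, and Xist ran from 603 to 1247 CPM with no library at 0. Every KO library thus held reads of both Xist and the Y-linked genes. The part of cell makeup or of the mice used in these differences was not tested.

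Some stress and hypoxia genes were higher in number 2. Cells sense oxygen through prolyl hydroxylases that mark hypoxia-inducible factors for destruction, and when oxygen falls the factors bind the core letters ACGTG or GCGTG and raise genes of glycolysis, vessel growth and their own hydroxylases. Of 24 stress, hypoxia and heat shock genes, 10 were higher in number 2 and 1 lower, with a median of 0.36 against 0.01 over all genes. The list was split after its values were seen. The 9 hypoxia genes had a median of 2.13 (6 higher, 0 lower), and the other 15 had one of 0.10 (4 higher, 1 lower). Adm (adrenomedullin, a vessel-dilating peptide) stood at 12.1, 42.8 and 16.3 CPM in the controls and at 13.4, 92.3 and 16.9 CPM with rPOSTN. Slc16a3, a lactate exporter that is not on this list, stood at 13.8, 53.1 and 17.5 CPM in the controls. With rPOSTN it stood at 18.2, 116 and 19.0 CPM. Bnip3, a mitophagy protein, stood at 39.7, 109 and 29.6 CPM in the controls and at 35.5, 167 and 22.7 CPM with rPOSTN. In each, both libraries of number 2 were the highest, and rPOSTN 2 was above control 2.

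For rPOSTN against control, 0 of these 24 genes were called, and their paired median was 0.07 against -0.00 over all genes. It was 0.37 for the 9 hypoxia genes and 0.04 for the other 15. In pairs 1, 2 and 3 the medians of the hypoxia genes were 0.11, 0.93 and -0.01. Ldha (lactate dehydrogenase A) stood at 443, 728 and 438 CPM in the controls and at 525, 1276 and 458 CPM with rPOSTN, a paired difference of 0.37 (SE 0.12, edgeR unadjusted p = 0.0122, adjusted p = 0.999). Slc2a1 (the glucose importer GLUT1) stood at 101, 301 and 109 CPM and at 127, 776 and 104 CPM, a paired difference of 0.55 (SE 0.39). With number 3 left out, the blocked fit called 10 genes: Slc2a1, Slc16a3, Ldha, Eno1, Aif1l, Htra1, Hbegf, Oaf and Lgals3 higher, and Fat1 lower. That fit rests on pairs 1 and 2, and each of the 9 higher genes was highest in rPOSTN 2. Fat1 was instead lowest in rPOSTN 1, at 94.9 CPM against 112 to 207 in the other libraries. Leaving out number 2 called Kmt2d, a histone methyltransferase gene, as lower. Kmt2d stood at 61.4, 62.1 and 61.4 CPM in the controls and at 25.1, 62.9 and 55.1 CPM with rPOSTN, and was also lowest in rPOSTN 1. That library had lower counts of long genes, and the part of this in the Fat1 and Kmt2d values was not tested.

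The promoters of Adm, Bnip3 and Slc16a3, described above as higher in number 2, are shown to place these letters. Each is 250 bases before to 50 after the start of the gene on the GRCm38.p6 build, taken from RefSeq, 5 prime to 3 prime, with ACGTG or GCGTG on either strand in capitals. Their own build differs from that of the counts, GRCm39, so coordinates are those of the sequence table alone.
Adm, chr7:110627407-110627706, plus strand: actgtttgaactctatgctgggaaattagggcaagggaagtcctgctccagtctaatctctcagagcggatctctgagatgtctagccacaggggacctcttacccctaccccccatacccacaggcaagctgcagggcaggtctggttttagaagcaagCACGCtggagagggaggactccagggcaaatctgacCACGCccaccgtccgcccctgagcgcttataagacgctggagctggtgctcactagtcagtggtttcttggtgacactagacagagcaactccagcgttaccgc
Bnip3, chr7:138909457-138909756, minus strand: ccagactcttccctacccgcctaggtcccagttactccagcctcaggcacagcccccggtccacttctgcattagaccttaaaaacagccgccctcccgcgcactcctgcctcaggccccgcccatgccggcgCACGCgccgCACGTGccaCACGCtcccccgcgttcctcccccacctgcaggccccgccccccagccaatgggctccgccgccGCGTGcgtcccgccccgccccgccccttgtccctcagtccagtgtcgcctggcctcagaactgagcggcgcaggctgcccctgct
Slc16a3, chr11:120948817-120949116, plus strand: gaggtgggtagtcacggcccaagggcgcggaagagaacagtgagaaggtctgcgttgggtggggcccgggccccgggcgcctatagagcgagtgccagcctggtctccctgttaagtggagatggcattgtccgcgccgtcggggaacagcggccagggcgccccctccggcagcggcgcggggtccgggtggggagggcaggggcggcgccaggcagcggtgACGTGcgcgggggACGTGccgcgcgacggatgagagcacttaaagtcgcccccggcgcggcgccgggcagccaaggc
Of the 15 genes named for number 2, 10 had a window in the table and 8 held the motif in at least 1 window, against 65.1% of the tested genes that had a window. The windows of Depp1 and Mmp3, not printed here, held 0 matches. The motif count by start position was 2 in Adm, 5 in Bnip3 and 2 in Slc16a3. The Bnip3 starts at 143 and 144 overlap in CACGTG, which matches on each strand and is counted for both. A match is a description of letters, and the share of 8 of 10 was not tested against that of all genes.

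**Figure D5:**
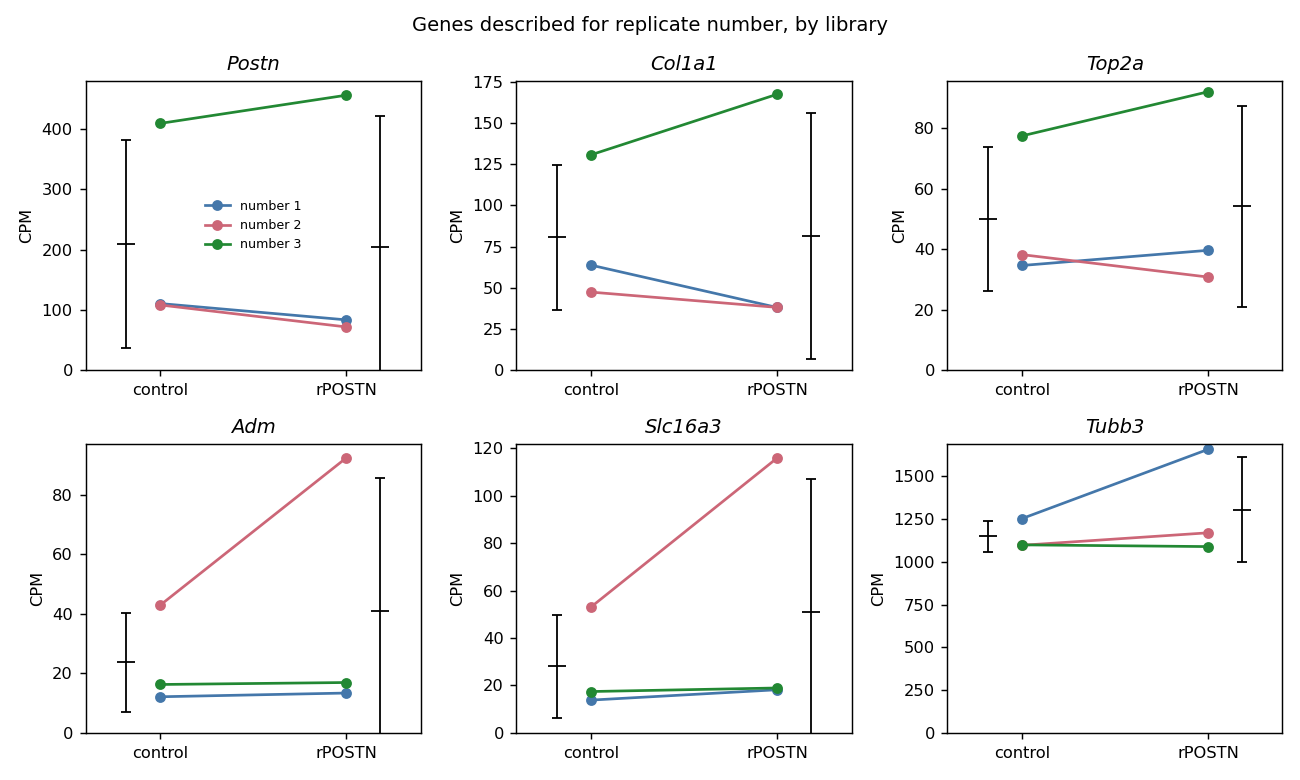
CPM (y axis) of 6 genes in control and rPOSTN KO cultures, with libraries of the same replicate number joined by lines and coloured by number, and the mean and SD of 3 libraries beside them (bars reaching below 0 stop at the axis). Number 3 is highest for Postn, Col1a1 and Top2a, and number 2 for Adm and Slc16a3, with rPOSTN 2 at 92.3 CPM for Adm. Tubb3 is highest in rPOSTN 1.

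The effect in KO cultures was last set against that in WT cultures in 1 fit over the 12 culture libraries. The WT libraries differed in sex-linked genes by number: Xist was at 0.444 and 0.832 CPM in WT control 1 and 2 but at 1198 CPM in WT control 3, and at 0.448, 0.848 and 1258 CPM in WT rPOSTN 1, 2 and 3. The Y-linked gene Ddx3y was at 79.7 to 87.0 CPM in the WT libraries of numbers 1 and 2, and all 4 Y-linked genes were at 0 in those of number 3. The KO libraries held both Xist and Y-linked reads, so the genotypes also differ in sex-linked expression, and its part in any KO against WT value was not tested. For the difference of the effects, 0 of 17519 genes (0%) passed an adjusted p of 0.05 in edgeR, 342 had an unadjusted p below 0.05, and DESeq2 called 0. With blocks of genotype by number, 2 genes (0.0114%) passed, both annotated as miRNA genes without a name of their own, Gm23935 and Gm24270. These blocks are less certain in WT cultures. WT numbers 1 and 2 correlated at 0.36 and 0.37 within a number and at 0.36 and 0.35 across them. They are thus not shown to be pairs. Gm23935 stood at 651, 416 and 495 CPM in KO controls and at 554, 366 and 380 CPM with rPOSTN, so it was lower with rPOSTN in all 3 KO pairs. In WT cultures it stood at 957, 1115 and 2157 CPM and at 1474, 1996 and 4668 CPM, higher in all 3 pairs. The difference of effects was -1.13 (SE 0.11, edgeR adjusted p = 0.000526) and, without the block, -1.21 (SE 0.66, edgeR adjusted p = 0.99999). Gm24270 gave -1.01 with the block (SE 0.14, edgeR adjusted p = 0.0448). Gm24270 was higher in pair 1, level in pair 2 and lower in pair 3 of the KO cultures, and higher in all 3 WT pairs. In an alternative added after the data had been seen, both WT libraries of number 3 were left out of the blocked fit. Gm23935 still passed (-0.998, edgeR adjusted p = 0.00219), Gm24270 did not, and Lars2 (mitochondrial leucyl-tRNA synthetase) passed (-0.90, edgeR adjusted p = 0.0311), against an adjusted p of 0.454 with all 12 libraries. Lars2 stood at 352, 230 and 275 CPM in KO controls and at 269, 231 and 219 CPM with rPOSTN. In WT cultures it stood at 518, 575 and 1050 CPM and at 769, 967 and 2472 CPM. Gm23935, Gm24270 and Lars2 were each highest in WT rPOSTN 3, and Gm23935 and Lars2 put the WT libraries in the same order. Whether these genes are separate signals was not tested. The libraries were made from polyadenylated RNA, and which transcripts these reads come from cannot be read from gene counts.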

How the data were processed

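The libraries are paired-end 150 bp RNA-seq on a DNBSEQ-T7, prepared with a VAHTS kit that marks strand with dUTP, per the labels' protocols. Values are raw read counts per gene, whole numbers as deposited by the authors. GRCm39 was the build, with TopHat2, Bowtie2 2.2.3 and HISAT2 2.1.0 among the tools, per the submitters' processing notes. No source used here states the counting tool or strand setting. Gene symbols were matched by identifier for 55141 of 55487 genes.

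Counts were tested with edgeR 4.0.16 in R 4.3.3: filterByExpr, TMM scaling, quasi-likelihood test with a robust fit, Benjamini-Hochberg adjustment and a threshold of 0.05. DESeq2 1.42.0 and limma 3.58.1 were alternatives. Replicate numbers come from the titles. Every same-numbered pair correlated above 0.1 (0.39, 0.71 and 0.63), so the block is given beside the unpaired fit. WT pairs correlated at 0.36, 0.37 and 0.67. WT control 1 correlated with WT rPOSTN 2 at 0.36, and WT control 2 with WT rPOSTN 1 at 0.35. WT numbers 1 and 2 are therefore not shown to be pairs. Scripts were tested on simulated data. Levels per kilobase use union exon lengths of GENCODE M21.

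Named were Postn, the 5 genes with the smallest p in each direction of each fit (mean of at least 1 CPM), the 20 with the largest range by number (at least 5 CPM), and up to 4 per list. Other list members of known role were named after their values were seen. The comparison, lists and rules were chosen with earlier results of these data known. Alternatives were RLE scaling, other filters, no robust fit, DESeq2, leaving out libraries or numbers, and fits over all 12 culture libraries. The 10 ganglion libraries were not analysed here.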

Additional observations from a re-analysis of the deposited data

Results flagged for a closer look

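The difference of the rPOSTN effect between KO and WT cultures passed the threshold for 2 genes annotated as unnamed miRNA genes. That fit had replicate numbers blocked within each genotype, and WT numbers 1 and 2 are not shown to be pairs. Gm23935 had an adjusted p of 0.000526 in edgeR and Gm24270 one of 0.0448. Gm23935 was lower with rPOSTN in 3 of 3 KO pairs and Gm24270 was mixed, while both were higher in 3 of 3 WT pairs. Neither passed the threshold without the block. Without both WT libraries of number 3, the blocked fit gave Gm23935 an adjusted p of 0.00219 and Lars2 one of 0.0311, and did not call Gm24270. Lars2 was higher with rPOSTN in 3 of 3 WT pairs, and in KO cultures it was lower in pairs 1 and 3 and level in pair 2. Gm23935, Gm24270 and Lars2 were each highest in WT rPOSTN 3. Gm23935 and Lars2 also put the WT libraries in the same order. Whether these genes are separate signals was not tested.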

How the results depend on the processing

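For rPOSTN against control, the count stayed at 0 under RLE scaling, no low-count filter, a stricter filter, a fit without robust estimation, DESeq2, limma-trend, all 12 libraries and each library left out. With the replicate block it was 0, and 1 to 10 when both libraries of 1 number were left out: 1 without number 1 (C3), 4 without number 2 (C3, Nova2, Kmt2d and Gm10800) and 10 without number 3. Blocking changed no other call for rPOSTN. For the difference of effects, the block gave 2 in place of 0, and also 2 without both WT libraries of number 3, of which only Gm23935 was shared. For replicate number the counts were 1416 with RLE scaling, 2029 without a filter, 1353 with the stricter filter, 1321 without robust estimation and 1016 in DESeq2, and 625 to 3203 with a library left out. Of 106 genes named for replicate number, 55 kept the call in every alternative. Most calls were lost without rPOSTN 2 (35 genes) and rPOSTN 3 (29). The cause was not tested.

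Small unpaired differences turned sign with a library left out. Postn ranged from -1.43 to 0.90, being 0.90 without control 3, 0.33 without rPOSTN 1 and 0.37 without rPOSTN 2. Its difference of effects ranged from -1.50 to 0.84, being 0.84, 0.28 and 0.31 without the same libraries and 0.03 without WT control 3. Prph ranged from -0.0103 (without rPOSTN 1) to 0.19, Tubb3 from -0.0256 (without rPOSTN 1) to 0.30, and Itgb3 from -0.23 (without rPOSTN 2) to 0.94. With the replicate block, Prph was -0.00651 without replicate 1 and Itgb3 -0.0156 without replicate 2.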
